A study of Mus musculus with 79 samples.

Results

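RNA of the choroid plexus was followed gene by gene through bulk RNA sequencing of 2 brain regions, the medial prefrontal cortex (mPFC) and the ventral hippocampus (vHipp). The 10 genes were Ttr, Kcnj13, Clic6, Tmem72, Folr1, Slc4a5, Aqp1, Otx2, Enpp2 and Calml4, out of 55471 genes counted. They were selected by name as genes of the choroid plexus epithelium and on their levels in these same libraries, after several of them had been seen to rise together in single libraries. Their own levels, in every region and group, are therefore a description without a test.

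The mice were 40 wild-type male CD-1 mice (an outbred stock), aged 9 to 10 weeks in the methods of the study. CTRL mice were unstressed, and CSDS mice went through 21 days of chronic social defeat stress. Within each stress group, mice received 1 injection of saline or of ketamine (10 mg/kg), and tissue was collected 7 days later. Each of the 4 groups had 10 mice and gave 10 libraries per region, except that the ketamine-treated CSDS mice gave 9 from the mPFC, for 79 in all. Tissue was taken with a needle of 1 mm from frozen slices of 200 µm, so each library is 1 small dissection of 1 mouse. Mice lived in social boxes (SBs) in fours, and neither the SB nor the social rank is given by the sample labels.

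The choroid plexus is a folded epithelium that hangs in the brain ventricles and secretes cerebrospinal fluid. It is no part of the brain tissue itself, but in the lateral ventricle it lies against the hippocampus. Its epithelial cells make transthyretin (Ttr), the carrier of thyroid hormone, in very large amounts, together with ion channels and transporters of fluid secretion.

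The dissections themselves matched their labels. The summed level of 6 hippocampal markers (Prox1, Zbtb20, C1ql2, Lct, Spink8 and Fibcd1) ran from 516 to 1031.8 CPM (counts per 1000000 counts of a library) in the vHipp and from 87.8 to 309 in the mPFC, and the summed level of 4 cortical markers (Rorb, Cux2, Fezf2 and Tbr1) from 102.7 to 164 in the vHipp and from 369 to 503 in the mPFC. Total counts per library ran from 11726129 to 41767119 with a median of 19638060, so that 1 count was worth 0.0239 to 0.0853 CPM. A gene with no count in a library could still be present at up to 0.0718 to 0.256 CPM, the limit that 3 counts set, and such limits cover counting error only. CPM here are scaled with factors of the TMM method over all 79 libraries.

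The start sites of some of these genes are shown because OTX2, itself among the genes, is a homeodomain factor that choroid plexus development depends on. The RefSeq promoter windows of the GRCm38.p6 build, 250 bases before to 50 bases after a start, held entries for 6 of the 10 genes (Kcnj13, Aqp1, Slc4a5, Tmem72, Calml4 and Otx2). The bicoid-type site TAATCC was searched in the 250 bases before each start on both strands, and reads GGATTA on the other strand. It was found in 1 of the 6 genes, in 1 of 4 windows of Otx2, where 7.21% of the 27025 genes of the whole table held it in at least 1 window. A match is a match of letters and no measured binding. The stretch of Otx2 that holds the match is at chr14:48665303-48665332 on the minus strand, within an annotated exon of Otx2, with the match in capitals. The 100 bases directly before the start of Kcnj13 (chr1:87394730-87394829, minus strand) and of Aqp1 (chr6:55336199-55336298, plus strand) overlap no annotated exon and hold no match.
Otx2: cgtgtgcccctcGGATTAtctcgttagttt
Kcnj13: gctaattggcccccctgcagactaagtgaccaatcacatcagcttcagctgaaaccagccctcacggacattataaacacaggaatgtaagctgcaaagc
Aqp1: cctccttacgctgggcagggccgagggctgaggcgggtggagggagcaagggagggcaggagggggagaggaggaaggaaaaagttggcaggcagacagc

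Ttr (ENSMUSG00000061808, chromosome 18, 20665280 to 20674321, plus strand, GRCm38) was close to absent in most dissections and very high in a few. In the vHipp, its lowest, median and highest levels were 0, 0.250 and 7.74 CPM in saline-treated CTRL mice and 0.0550, 0.136 and 3.55 CPM in ketamine-treated CTRL mice. They were 0, 0.341 and 645 CPM in saline-treated CSDS mice and 0, 0.228 and 9.54 CPM in ketamine-treated CSDS mice. Most libraries of the 4 groups thus overlapped, and the medians of the groups lay closer together than the libraries within any of them. The highest level belonged to mouse 9 and the next, 67.2 CPM, to mouse 13, both saline-treated CSDS mice. After them came mouse 1 (9.54 CPM), mouse 38 (7.74 CPM) and mouse 31 (3.55 CPM), each from another group, while 4 of the 40 vHipp libraries had no count at all. The mean of the saline-treated CSDS group was 71.5 ± 203 CPM (SD, n = 10), 7.75 ± 22.3 CPM (SD, n = 9) without mouse 9 and 0.321 ± 0.433 CPM (SD, n = 8) without both. In these bulk libraries, fewer cells of a type and less RNA per cell cannot be told apart.

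The vHipp library of mouse 9 held the highest level of 9 of the 10 genes among the 40 vHipp libraries. Across the 28991 genes tested in the vHipp, 4.51% had their highest level in this library. Ttr gave 11721 counts there, 645 CPM with an exact Poisson interval of 633 to 657, which was 2855 times the median of the vHipp libraries. The intervals given here have a confidence level of 95% and cover counting error only. The channels and transporters of the epithelium were at a few CPM there and lower in the other libraries. Clic6, a chloride channel protein, was at 10.6 CPM (interval 9.17 to 12.2) against at most 0.797 CPM in the 38 libraries other than those of mice 9 and 13. Slc4a5, a sodium bicarbonate cotransporter, was at 4.07 CPM (interval 3.20 to 5.11), where those 38 reached 0.345 CPM. Kcnj13, an inward rectifier potassium channel, had 61 counts (3.36 CPM), and Aqp1, the water channel, had 42 counts (2.31 CPM).

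Most of the remaining genes were also at their highest in this library. Folr1, the folate receptor that carries folate into the cerebrospinal fluid, was at 5.61 CPM against at most 0.577 CPM in the same 38 libraries. Tmem72, a transmembrane protein, was at 7.32 CPM against at most 0.370 CPM, and Calml4, a calmodulin-like protein, at 3.03 CPM against at most 0.583 CPM. Enpp2, the enzyme autotaxin, was at 242 CPM against at most 137.5 CPM, a level 3.05 times the vHipp median. Otx2 was the exception, with 2.64 CPM, the sixth highest of the 40. On a scale that accounts for gene length (counts per base of exon, as in TPM), Ttr reached 1952 in this library and Enpp2 150. Clic6 (9.74), Kcnj13 (9.49) and Folr1 (8.77) followed at levels close to each other, then Aqp1 (3.16), Calml4 (2.98), Slc4a5 (2.52), Otx2 (2.25) and Tmem72 (1.53). The exon length used was 17177 bases for Tmem72 and at most 5804 for the others, so that the last place of Tmem72 depends on that length.

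**Figure D1:**
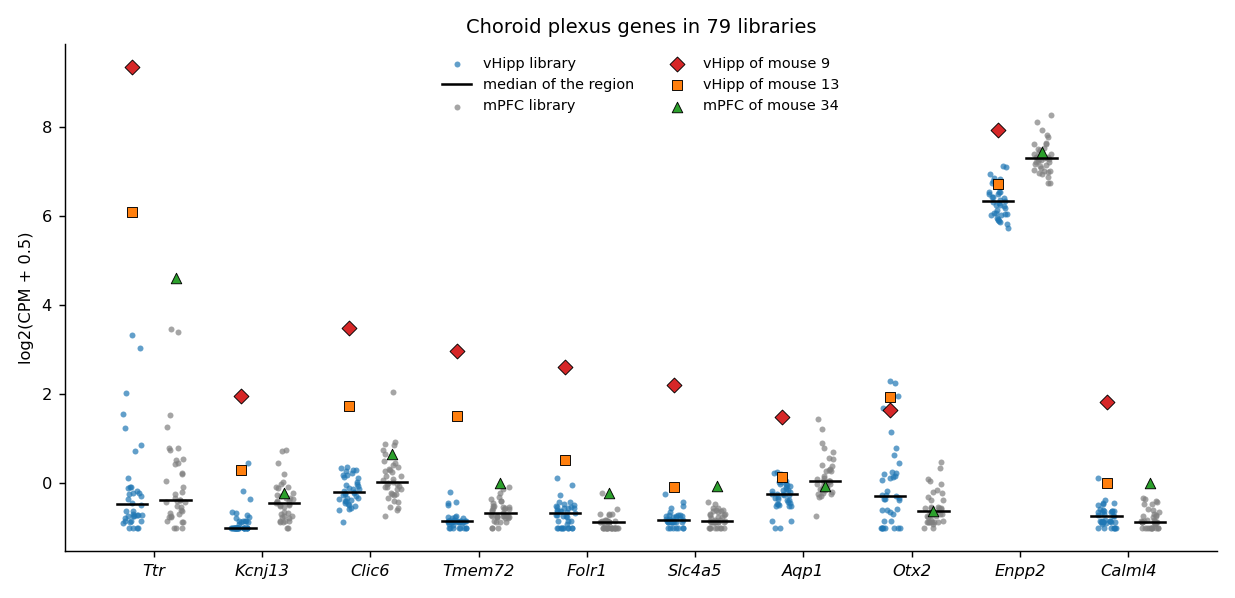
Level of each of the 10 genes in every library, as log2(CPM + 0.5), with vHipp libraries in blue, mPFC libraries in grey and a black line at the median of the region. The vHipp libraries of mice 9 (red diamond) and 13 (orange square) and the mPFC library of mouse 34 (green triangle) are marked: mouse 9 is at the top of the vHipp for 9 of 10 genes, and Otx2 and Enpp2 are spread among other libraries too.

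The vHipp library of mouse 13 came second. It was among the 5 highest vHipp libraries for 9 of the 10 genes, and the first or second for 5 of them (Ttr, Clic6, Tmem72, Folr1 and Slc4a5). The shares of all genes tested that are so placed in a library were not computed. It held the highest level of none of the 10, where 1.24% of the genes tested had their highest level. Its levels were 2.83 CPM for Clic6, 2.33 CPM for Tmem72, 0.942 CPM for Folr1, 0.720 CPM for Kcnj13, 0.609 CPM for Aqp1, 0.499 CPM for Calml4 and 0.443 CPM for Slc4a5. No vHipp library other than these 2 had more than 4 of the 10 genes among its 5 highest, and 18 libraries had none. The mPFC libraries of the same mice did not stand apart for Ttr, with 0.945 CPM in mouse 9 and 0.379 CPM in mouse 13. The submitters' library numbers place the vHipp of mouse 9 between the mPFC of mouse 32, without a count of Ttr, and the mPFC of mouse 9. The vHipp of mouse 11, 2 steps after it, had 2.43 CPM of Ttr. They place the vHipp of mouse 13 directly after the mPFC of mouse 34, which had 24.0 CPM of Ttr, the highest of the mPFC. Whether the order of the libraries bears on these levels was not tested.

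The ratio of the level in mouse 13 to that in mouse 9 was not the same for all genes. Ttr in mouse 13 was 0.104 times its level in mouse 9 (exact conditional binomial interval 0.0982 to 0.111). Slc4a5 had a similar ratio of 0.109, with the wide interval of 0.0453 to 0.226 that 8 counts allow. Calml4 (0.165), Folr1 (0.168) and Kcnj13 (0.215) had intervals that reached below 0.111. Aqp1 at 0.264 (0.122 to 0.521), Clic6 at 0.266 (0.192 to 0.364) and Tmem72 at 0.318 (0.219 to 0.453) had intervals wholly above that of Ttr. Enpp2, which every library holds, was at 0.429 (0.406 to 0.452). These are ratios of whole levels, which include what a usual vHipp library holds. For Aqp1 the excess over the vHipp median was 1.96 CPM in mouse 9 and 0.262 CPM in mouse 13, and for Enpp2 it was 162 and 24.2 CPM, so that the ratio of their excess lay nearer to that of Ttr. For Clic6 the excess was 10.2 and 2.45 CPM and for Tmem72 7.26 and 2.27 CPM, close to the whole levels. Otx2 had a ratio of 1.26, with an interval that includes 1 (0.847 to 1.88).

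A further 35 genes known from the choroid plexus were examined, from a list that was also chosen with results of these data known. Of these 35, 21 had their highest vHipp level in mouse 9, where 4.51% of all genes tested were highest. First or second highest there were 26, a count for which the share over all genes was not computed. Their summed level ranked only 7th of 40 in mouse 9 (559 CPM, range 383 to 615) and 24th in mouse 13 (514 CPM), and is mostly that of a few abundant genes. Those with little expression elsewhere in the vHipp stood out most. Kcne2, a potassium channel subunit, was at 2.81 CPM against 0.0543 CPM in the median library, and Ecrg4, a secreted peptide precursor, at 4.29 CPM against 0.171 CPM. Both were named after their values were seen. The 4 of the list with the highest mean level in the vHipp behaved differently. Slc4a10, a bicarbonate transporter that neurons also make, was at 173 CPM in mouse 9 and ranked 39th of 40, with a median of 251 CPM. Slc12a2 (66.2 CPM, median 56.8), Car12 (58.1 CPM, median 56.7) and Cab39l (34.2 CPM, median 28.8) were within 1.19 times the median, although Cab39l was at its highest there. In mouse 13, none of the 35 was at its highest and 5 were first or second.

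Markers of other cells were read in the same 2 libraries. The summed level of 12 ependymal genes, which mark the ciliated lining of the ventricles, was highest of the 40 in mouse 9 (25.1 CPM, range 11.6 to 25.1, median 14.3) and the fourth in mouse 13 (20.1 CPM). In mouse 9, 7 of the 12 were at their highest, while the most abundant of them, Rsph1 (5.67 CPM) and Rarres2 (4.90 CPM), ranked ninth and eighth. The 6 hippocampal markers summed to 516 CPM in mouse 9, the lowest of the 40 vHipp libraries, against a median of 804 CPM. Zbtb20, a transcription factor of hippocampal neurons, was at 313 CPM there against a median of 444 CPM, and Prox1, of the dentate gyrus, at 113.9 CPM against 150 CPM. The 4 cortical markers ranked 31st in mouse 9 at 119.7 CPM.

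For 4 further lists the library of mouse 9 lay within the range of the others. It ranked 13th of 40 for 10 leptomeningeal genes (90.2 CPM, range 38.2 to 131.7), with Dcn at 15.6 CPM and Slc13a3 at 14.4 CPM. It ranked 14th for 7 oligodendrocyte genes (1731 CPM, range 777 to 2922), with Mbp at 1148 CPM and Mobp at 273 CPM. It was the fourth for 6 endothelial genes (201 CPM, range 111.5 to 339), with Flt1 at 74.7 CPM and Slco1a4 at 45.1 CPM. It was the third for 5 blood genes (103.8 CPM, range 24.7 to 275), with Hbb-bs at 52.3 CPM and Hba-a1 at 38.9 CPM. None of the genes of these 4 lists was at its highest in mouse 9, and no gene of any list was at 0 in all libraries of a region. The part of the ependymal and hippocampal levels in the result was not tested.

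**Figure D2:**
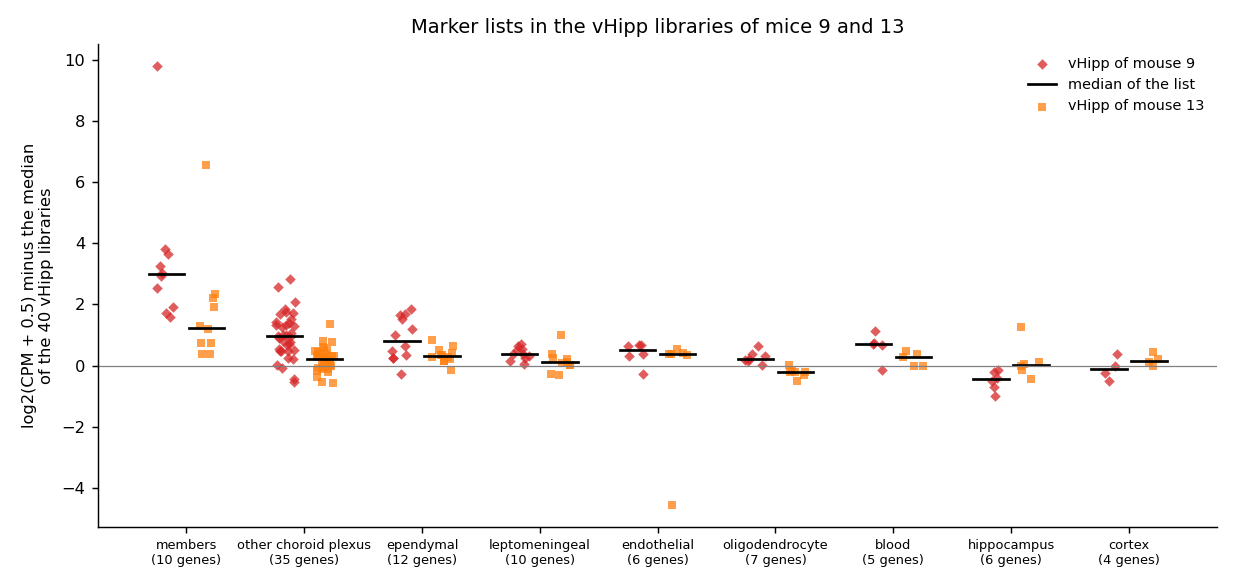
Difference of each gene of 9 marker lists from its median over the 40 vHipp libraries, in log2(CPM + 0.5), for the vHipp libraries of mice 9 (red) and 13 (orange). Black lines are the medians of the lists: in mouse 9 the 10 members and most of the other choroid plexus and ependymal genes lie above 0 and the 6 hippocampal genes below, and the lone orange point near the bottom is Pecam1, which had no count in mouse 13.

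Otx2 had a pattern of its own in the vHipp. It was highest in mouse 39 (4.40 CPM) and mouse 22 (4.27 CPM), both saline-treated CTRL mice, whose Ttr was 0.0404 and 0.287 CPM. Mouse 21 (3.36 CPM), mouse 13 (3.32 CPM), mouse 2 (2.74 CPM), mouse 9 (2.64 CPM) and mouse 38 (1.73 CPM) followed, and 8 of the 40 vHipp libraries had no count. The medians of the groups ran from 0.208 CPM in ketamine-treated CSDS mice, through 0.229 CPM in ketamine-treated CTRL mice and 0.462 CPM in saline-treated CTRL mice, to 0.764 CPM in saline-treated CSDS mice, with overlapping ranges. The genes most like Otx2 over the 40 libraries, looked up after its values were seen, were Chrnb3, a nicotinic receptor subunit (Pearson r = 0.77), Tfap2b, a transcription factor (r = 0.75), and Hs3st3b1, a heparan sulfate sulfotransferase (r = 0.75). Without mice 9 and 13, r was 0.83, 0.76 and 0.72 for the same genes. Exons of Otx2 share 154 bases with Otx2os1 on the opposite strand and 168 with Gm49154 on the same strand, 3.65% and 3.98% of its length. Counts from these bases are uncertain, and their share of the counts of Otx2 was not measured.

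Enpp2 was the only one of the 10 that every library held at more than 50 CPM. In the vHipp, saline-treated CSDS mice ranged over 55.5 to 242 CPM and the other 3 groups over 52.1 to 121.7 CPM. The oligodendrocytes of the brain also make it, and over the 40 vHipp libraries its log2 level followed that of Mbp, myelin basic protein, with r = 0.75, or 0.89 without mice 9 and 13. In the mPFC r was 0.80 over 39 libraries. Of the genes looked up after its values were seen, Evi2a (r = 0.83) and Tmem88b (r = 0.81) were closer to it in the vHipp than Mbp, with 0.89 and 0.92 without mice 9 and 13. In the mPFC, Npc1 (r = 0.90), Csrp1 (r = 0.90) and Fgfr2 (r = 0.90) were most like it.

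Kcnj13 had no count in 23 of the 40 vHipp libraries. After mouse 9 its highest levels were 0.861 CPM in mouse 4, 0.720 CPM in mouse 13 and 0.382 CPM in mouse 30. In saline-treated CTRL mice 1 of 10 libraries had no count of it, in ketamine-treated CSDS mice 9 of 10, with a single level of 0.109 CPM, in ketamine-treated CTRL mice 7 and in saline-treated CSDS mice 6. Of its exon length, 49.1% lies within exons of Gigyf2 on the opposite strand. The strand setting of the counting is not given in the sources used here, so its counts are uncertain.

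After Kcnj13, whose median was 0, the lowest levels were those of Tmem72, Slc4a5, Calml4 and Folr1, with vHipp medians of 0.0538, 0.0610, 0.102 and 0.132 CPM, which is only a few counts per library. Outside the libraries of mice 9 and 13, the highest levels of Folr1 were 0.577 CPM in mouse 24 and 0.481 CPM in mouse 38, and the highest of Tmem72 were 0.370 CPM in mouse 15, a saline-treated CSDS mouse, and 0.247 CPM in mouse 5. Among the better measured genes, Clic6 had a vHipp median of 0.379 CPM and Aqp1 of 0.347 CPM. Mouse 38, the fourth for Ttr, was also among the 5 highest for Tmem72, Folr1 and Calml4. Mouse 1, the third for Ttr, was among them only for Calml4 (0.266 CPM). At the proportions of mouse 9, its Ttr of 9.54 CPM would go with an excess over the median of 0.148 CPM of Clic6 and 0.105 CPM of Tmem72, a few counts at this depth. The measured levels there were 0.355 CPM of Clic6, below its median, and 0.0887 CPM of Tmem72. Folr1 (0.222 CPM), Slc4a5 (0.177 CPM) and Calml4 (0.266 CPM) exceeded their medians by more than the excess at those proportions (0.0792, 0.0579 and 0.0422 CPM). So did Aqp1 and Otx2, while Kcnj13 had no count and Enpp2 was below its median. Most of these levels rest on few counts.

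**Figure D3:**
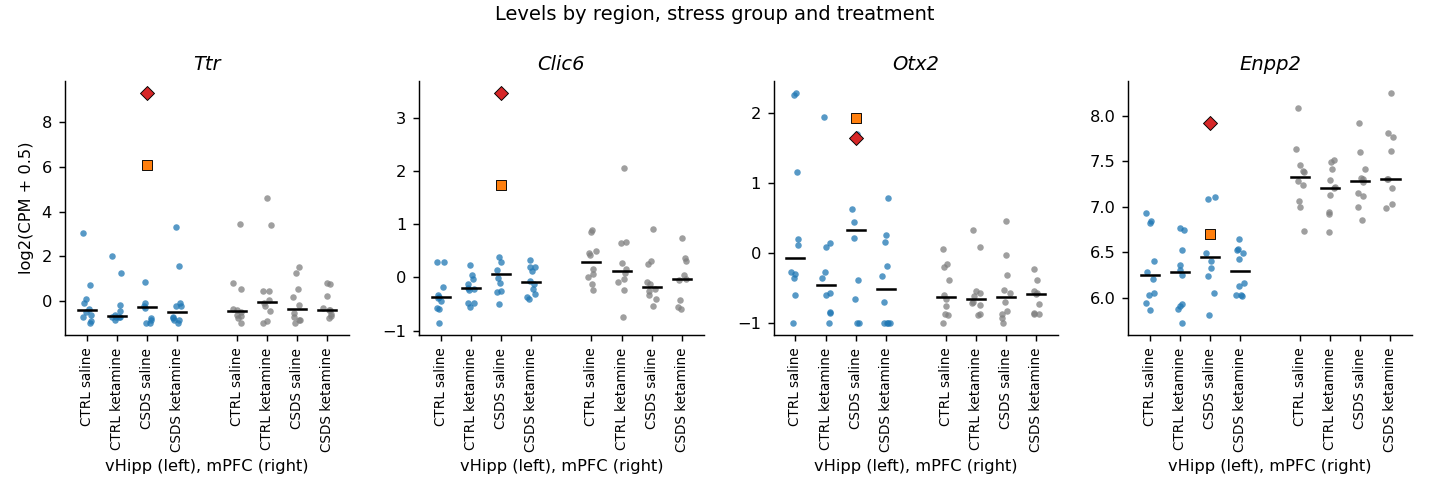
Ttr, Clic6, Otx2 and Enpp2 in the 8 groups, as log2(CPM + 0.5), with each library as a point and the group median as a black line. Red diamonds and orange squares are the vHipp libraries of mice 9 and 13: both are at the top of the saline-treated CSDS group for Ttr and Clic6, while the high Otx2 levels are spread over 3 groups and Enpp2 is higher in the mPFC (grey) than in most vHipp libraries (blue).

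In the mPFC, the highest Ttr was 24.0 CPM in mouse 34, followed by 10.6 CPM in mouse 24 and 9.94 CPM in mouse 31, all 3 of them CTRL mice. The lowest, median and highest levels were 0, 0.225 and 10.6 CPM in saline-treated CTRL mice and 0, 0.485 and 24.0 CPM in ketamine-treated CTRL mice. They were 0, 0.286 and 2.40 CPM in saline-treated CSDS mice and 0.0957, 0.268 and 1.24 CPM in ketamine-treated CSDS mice. The groups overlapped, and the mPFC median over 39 libraries, 0.272 CPM, was near the vHipp median of 0.226 CPM.

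The library of mouse 34 carried more of these genes than Ttr alone. It was the highest of the 39 mPFC libraries for 5 of the 10, where 2.57% of the 28993 genes tested in the mPFC were highest. These were Ttr, Tmem72 (0.510 CPM, median 0.135), Slc4a5 (0.459 CPM, median 0.0587), Folr1 (0.357 CPM, median 0.0437) and Calml4 (0.510 CPM, median 0.0513). Apart from Ttr, these levels rest on 7 to 10 counts each. Aqp1 (0.459 CPM) and Otx2 (0.153 CPM) were near their mPFC medians there. The ependymal sum ranked sixth there (17.2 CPM) and the leptomeningeal sum 22nd. The sum of the other 35 choroid plexus genes was the highest of the 39 (643 CPM, median 551), a sum that includes Slc4a10 with its mPFC median of 304 CPM. Mice 2 and 24 also had 5 of the 10 genes among the 5 highest mPFC libraries, and 15 of the 39 libraries had none. Mouse 31 was second for Tmem72 (0.437 CPM) and among the 5 highest for Folr1 and Calml4.

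Other genes of the group were high in other mPFC libraries. Kcnj13 was highest in mouse 24 (1.17 CPM), mouse 4 (1.15 CPM) and mouse 30 (0.876 CPM). The summed level of the 5 blood genes was also highest in these 3 libraries, at 468, 313 and 369 CPM against a median of 102.9 CPM. Over the 39 libraries of the mPFC, the log2 level of Kcnj13 followed Hbb-bs, a beta-globin gene, with r = 0.62. Over the 40 of the vHipp r was 0.35, and mouse 4, second there for Kcnj13, had the highest sum of the blood genes (275 CPM). In the mPFC, r of Kcnj13 with the leptomeningeal gene Dcn was 0.50. Decr1 (r = 0.71), Ptgds (r = 0.71) and Lhfpl2 (r = 0.69), looked up after its values were seen, were closer to Kcnj13 there than Hbb-bs. Aqp1 was highest in mouse 30 (2.22 CPM) and mouse 21 (1.84 CPM) and followed the leptomeningeal genes Dcn with r = 0.51 and Col1a1, chosen after its values were seen, with r = 0.74, against 0.11 and 0.22 in the vHipp. Aqp1 is also made by red blood cells. Mouse 30 had the highest leptomeningeal sum in both regions (350 CPM in the mPFC and 131.7 CPM in the vHipp). The part of blood and leptomeningeal RNA in these levels was not tested. Clic6 was highest in mouse 26 (3.65 CPM), with the ependymal sum at its highest of the mPFC there (28.4 CPM, median 14.7), and Otx2 in mouse 2 (0.881 CPM). Mouse 2 was second for Clic6 (1.39 CPM) and mouse 26 second for Otx2 (0.761 CPM). In the mPFC, r of Clic6 with Otx2 was 0.66, and r with Mbp was 0.54 for Clic6 and 0.62 for Otx2.

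**Figure D4:**
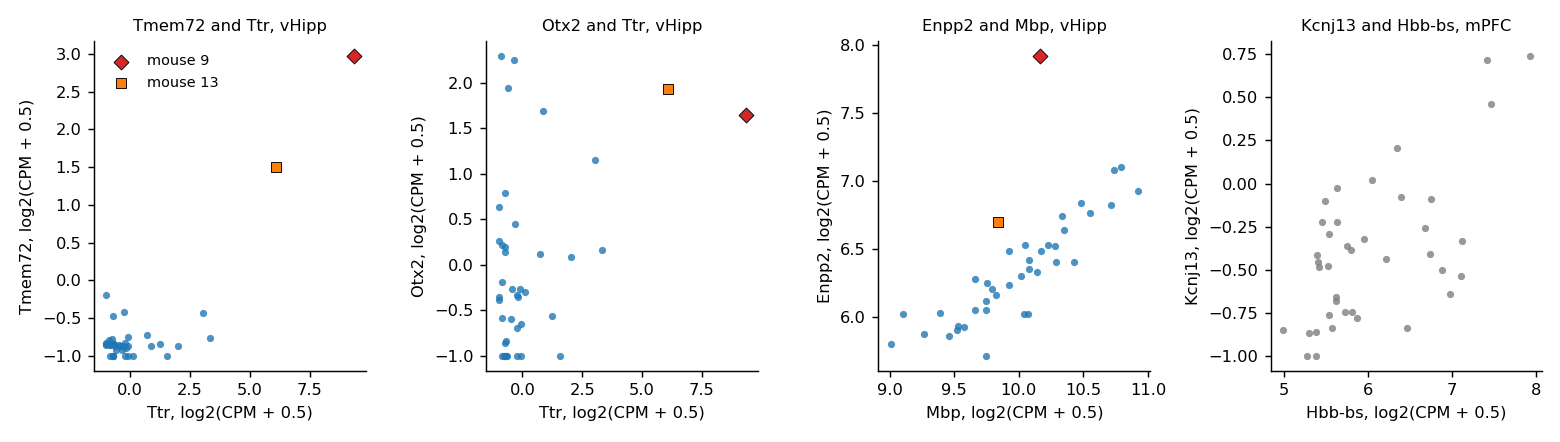
Pairs of genes over the 40 vHipp libraries (3 panels) and the 39 mPFC libraries (last panel), each axis as log2(CPM + 0.5). Tmem72 and Ttr are high together in mice 9 (red diamond) and 13 (orange square), Otx2 is high in mice 9 and 13 and also in libraries with little Ttr, Enpp2 follows Mbp with mouse 9 above the rest, and Kcnj13 follows Hbb-bs in the mPFC.

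Over pairs of the 10 genes, the correlations of the vHipp rested on the 2 libraries. The median Pearson r of the log2 levels over 45 pairs was 0.67 in the 40 vHipp libraries and 0.07 in the 38 without mice 9 and 13. In the mPFC it was 0.14, from -0.08 to 0.66. Low counts weaken such values, and the points share depth and dissection. The 5 genes most like the mean standardized level of the 10 in the vHipp were Abca4 (r = 0.63), a retinoid transporter of the list of 35, Trpv4 (r = 0.61) and Igfbp2 (r = 0.61) of the same list, Gm6474 (r = 0.59) and Gm10704 (r = 0.58). Without mice 9 and 13 these values were 0.27, 0.16, 0.25, 0.25 and 0.40. In the mPFC they were Gm48768 (r = 0.62), Kat2b (r = 0.60), Rasl12 (r = 0.60), Stat5a (r = 0.59) and Slco5a1 (r = 0.58), of which none is in the vHipp group of 5. For Ttr, r between the regions over 39 mice was 0.19, with a Spearman rho of 0.42, and 0.33 over the 37 mice without mice 9 and 13. Over the 10 genes r ran from -0.26 to 0.28 (Kcnj13), and for Kcnj13 it was 0.50 without the same mice.

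Between the regions, 48.9% of the 31534 genes tested passed edgeR's quasi-likelihood test at a Benjamini-Hochberg adjusted p of 0.05, 24.4% higher and 24.5% lower in the vHipp. All 10 genes passed the filter on low counts, and 6 passed the test, 3 in each direction, a count from which nothing is read because the levels in both regions chose the genes. With the mouse as a block 5 passed, since Calml4 was lost. Without mouse 9, Calml4 did not pass and Clic6 did, and without mice 9 and 13 Tmem72 passed too. The log2 fold change (LFC), vHipp minus mPFC, was 1.90 (standard error 0.45) for Folr1, 1.90 (0.38) for Otx2 and 0.90 (0.39) for Calml4, and was -1.86 (0.42) for Kcnj13, -0.93 (0.09) for Enpp2 and -0.76 (0.20) for Aqp1. For Ttr it was 1.32 (standard error 0.65) with the 79 libraries, 0.18 (0.60) with the mouse as a block and -0.59 (0.51) without the vHipp libraries of mice 9 and 13. Tmem72 went from -0.29 (0.37) to -1.22 (0.28) and Clic6 from -0.20 (0.25) to -0.67 (0.19) in the same way.

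Of the other 35 choroid plexus genes, 21 passed the same test between the regions, 9 higher and 12 lower in the vHipp. The p-values of the genes below are from the fit without the mouse as a block, although 39 mice gave both regions. With the block 22 of the 35 passed, with a smallest adjusted p of 7.14e-32 from edgeR. The median LFC of the 35 was 0.03, that of all genes tested 0.00, and the share of the 35 that passed is read against the 48.9% above. Car12, a carbonic anhydrase, was higher in the vHipp by 2.86 on the log2 scale (standard error 0.09, with an adjusted p = 8.19e-44 from edgeR). Cldn2, a tight junction claudin, had an LFC of 2.37 (adjusted p = 1.60e-15 from edgeR), Kl, the klotho gene, 1.91 (adjusted p = 2.46e-35) and Prlr, the prolactin receptor, 1.86 (adjusted p = 1.52e-14). Slc13a4, a sulfate transporter that the leptomeninges also make, fell by 1.91 on the log2 scale (adjusted p = 1.06e-16 from edgeR) and Col8a1, a collagen, by 1.86 (adjusted p = 7.61e-19). Kl was at 13.5 to 33.2 CPM in the vHipp, including the libraries without a count of Ttr.

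Stress was compared within each treatment, and ketamine within each stress group, with edgeR's quasi-likelihood test in each region. In the vHipp, none of the 28991 genes tested passed an adjusted p of 0.05 for CSDS against CTRL mice treated with saline (0.0%), for CSDS against CTRL mice treated with ketamine (0.0%), or for ketamine against saline in CTRL mice (0.0%) or in CSDS mice (0.0%). An unadjusted p under 0.05 was reached by 1615, 1572, 836 and 842 genes, and with DESeq2 0 genes passed in each and 1337, 1302, 587 and 559 had an unadjusted p under 0.05. In the mPFC the same 4 comparisons over 28993 genes gave 0.0% each by edgeR and 0 genes by DESeq2, with 852 to 1681 genes at an unadjusted p under 0.05 by edgeR and 562 to 1316 by DESeq2. Accordingly, 0 of the 10 genes and 0 of the other 35 passed in any of the 8 comparisons with either tool.

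The LFCs of most of the 10 genes in the vHipp of saline-treated CSDS mice changed without the libraries of mice 9 and 13. For CSDS against CTRL mice with saline, the LFC of Ttr was 6.12 (standard error 1.26). It was 6.13 without mouse 13, 2.88 without mouse 9, and -1.59 (1.05) without both. The same values for Tmem72 were 3.77 (0.82), 3.56, 2.11 and 0.08 (0.67), and for Clic6 they were 2.34 (0.51), 2.24, 1.13 and 0.54 (0.32). Folr1 went from 1.74 (0.66) to -0.79 (0.58) without both, Slc4a5 from 2.54 (0.72) to -0.30 (0.59), Calml4 from 1.29 (0.66) to -1.37 (0.60) and Kcnj13 from 2.11 (0.74) to 0.19 (0.74). With all libraries kept, DESeq2 gave 4.47 for Ttr, -0.09 for Folr1, 0.31 for Slc4a5 and -0.67 for Calml4. By default, DESeq2 can replace counts that it flags as outliers in groups of this size. The sets of mouse numbers as covariate gave 4.30 for Ttr. Aqp1 went from 0.70 (0.44) to -0.14 (0.41). Enpp2 had 0.38 (0.19) and 0.14 (0.17), and Otx2, which lay farther from 0 without both, -0.15 (0.68) and -0.82 (0.75). The median over the 10 genes was 1.93 with all libraries, where that of all genes tested was -0.01, and -0.22 without both.

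The comparison of ketamine with saline in CSDS mice shares the saline-treated CSDS libraries, and its values move with the same 2 libraries. The LFC of Ttr was -5.73 (standard error 1.23) with all libraries and 1.97 (1.04) without both, and that of Tmem72 was -3.89 (0.85) and -0.21 (0.67). Kcnj13 had -5.01 (1.07) and -3.09 (1.03), and such fitted values are no bound. It had no count in 9 of the 10 ketamine-treated CSDS libraries and in 6 of the 8 saline-treated ones without mice 9 and 13, where mouse 4 had 19 counts and mouse 2 had 2, so that the second value rests mainly on mouse 4. A fit without mouse 4 was not made. Of the other 35 genes, 8 had an unadjusted p under 0.05 for stress with saline (7 higher and 1 lower), where 1615 of 28991 genes had, and 9 for ketamine in CSDS mice (all lower), where 842 of 28991 had. Without both libraries these were 1 and 0 of the 35, where 1304 and 905 of 28797 genes had such a p. The comparisons that do not hold these libraries gave Ttr an LFC of 1.07 (1.59) for stress with ketamine and -0.68 (1.63) for ketamine in CTRL mice. Single libraries weigh on these values too. Mouse 1 had 9.54 CPM and the next of the ketamine-treated CSDS mice 2.43 CPM. Mouse 38 had 7.74 CPM and the next of the saline-treated CTRL mice 1.15 CPM. Fits without mice 1 or 38 were not made. In the mPFC, the LFC of Ttr for ketamine against saline in CTRL mice was 1.30 (0.81) and was -0.08 (0.79) without mouse 34, and for CSDS against CTRL mice with ketamine it was -2.94 (0.98) and -1.55 (0.93). The mPFC comparisons without that library gave -1.11 (0.92) for stress with saline and -0.52 (1.10) for ketamine in CSDS mice. The first of these holds mouse 24, with 10.6 CPM of Ttr against 1.24 CPM in the next of the saline-treated CTRL mice. A fit without mouse 24 was not made.

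**Figure D5:**
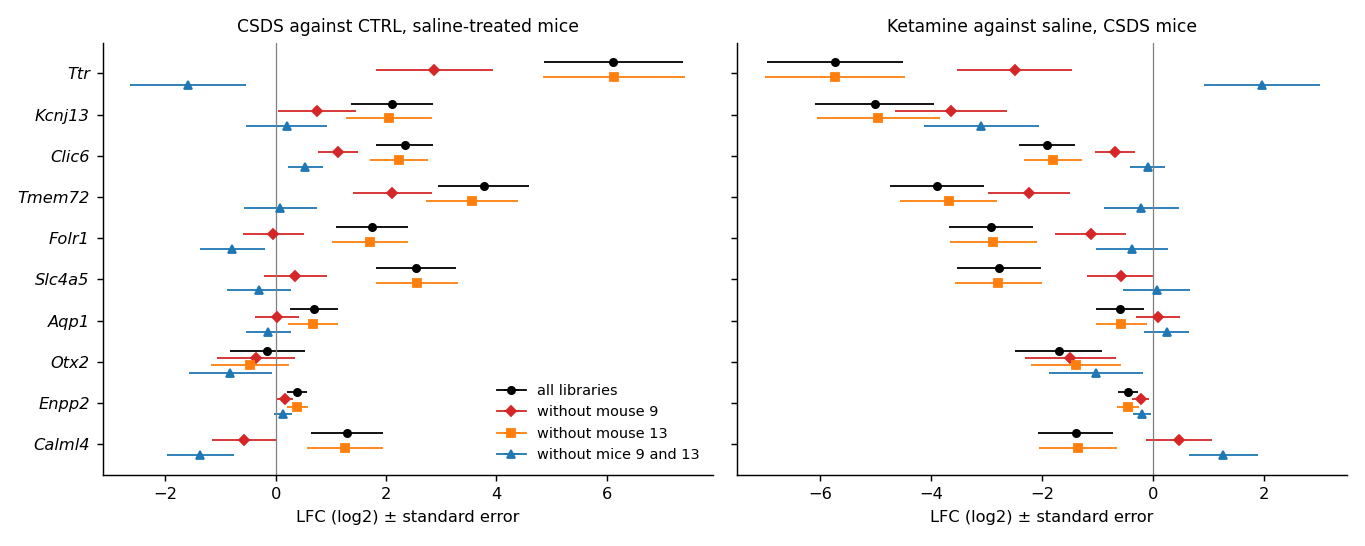
LFC with its standard error of each of the 10 genes in the vHipp for CSDS against CTRL mice with saline (left) and for ketamine against saline in CSDS mice (right), with all libraries (black) and without mouse 9 (red), mouse 13 (orange) or both (blue). Without both, Ttr moves from 6.12 to -1.59 on the left and from -5.73 to 1.97 on the right. Some other genes still lie away from 0 without both, such as Calml4 on the left and Kcnj13 (-3.09) on the right.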

How the data were processed

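The authors sequenced stranded mRNA libraries made from 100 ng of total RNA and deposited raw counts, whole numbers of reads per gene and library on GRCm38, for 79 libraries in 1 table. The submitters' processing notes name bcl2fastq 2.20.0.422 and CASAVA. The aligner, the counting program and its strand setting are not given in the sources used here. According to the methods, samples of low RNA integrity and an outlier had been removed. Region, stress group, treatment and mouse were taken from the sample titles. According to the methods, stress was applied to whole SBs, 5 of CSDS and 5 of CTRL mice with 4 mice each, so that the 10 mice of a group come from at most 5 SBs and are not fully independent, and p-values measure the spread between these mice.

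Symbols from the GENCODE annotation of GRCm38 were found for 55144 of 55471 identifiers, and 327 had none. Genes with more than 10 counts in total and detected in more than 3 libraries were tested with edgeR 4.0.16 (R 4.3.3), quasi-likelihood method, TMM normalization, the 4 groups of a region or the 8 groups of both regions in 1 fit, two-sided, with Benjamini-Hochberg adjustment over all genes tested. The SB term of the study's model could not be fitted, because the labels do not give the SB. CPM used TMM factors over 79 libraries, and log2 values a pseudocount of 0.5 CPM. Levels between genes used the exon length of the table. Correlations are descriptions, without p. Alternatives were RLE normalization, no filter, DESeq2 1.42.0, the sets of consecutive mouse numbers as covariate, the mouse as a block and single libraries left out. DESeq2 ran at its default settings, which can replace counts flagged as outliers in groups of this size. Which counts were replaced was not recorded. The libraries of mice 9 and 13 left out together, and that of mouse 34, were chosen after seeing the data. The models were tested on simulated data with 200 changed genes. Libraries with the same mouse number come from the same mouse: the deviations from the group means had a median correlation of 0.261 within 39 mice and of -0.0025 between mice, over 13568 genes.

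The members and marker lists were chosen with earlier results of these data known. The text names all members, of the other choroid plexus genes the 4 highest in the vHipp and up to 6 past the threshold with the largest LFC, 2 genes of each other cell type, all region markers, and the 5 genes most like the members in each region, among genes of at least 0.5 CPM on average. Items withheld from these lists are not reported here. Any gene beyond these was picked with its values in view, as the text says.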

Additional observations from a re-analysis of the deposited data

Results flagged for a closer look

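In groups of 9 or 10 libraries, a library stood apart when its distance from the closest other one, over the range of the group, exceeded the 95% critical value of Dixon's ratio. This held in 28 of 80 combinations of gene and group. Chance alone gives about 1 in 20 for values that follow a normal distribution, which CPM of few counts do not, and the genes were chosen for such levels, so that the number is a description. In the vHipp of saline-treated CSDS mice, mouse 9 stood apart for 9 genes, with 645 CPM of Ttr, 242 of Enpp2, 10.6 of Clic6, 7.32 of Tmem72, 5.61 of Folr1, 4.07 of Slc4a5, 3.36 of Kcnj13, 3.03 of Calml4 and 2.31 of Aqp1. In ketamine-treated CSDS mice of the vHipp, the levels apart were 9.54 CPM of Ttr in mouse 1, 0.109 of Kcnj13 in mouse 3, 0.247 of Tmem72 in mouse 5 and 0.583 of Calml4 in mouse 20.

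In CTRL mice of the vHipp, mouse 38 stood apart among the saline-treated for Ttr (7.74 CPM) and Tmem72 (0.240 CPM). Among the ketamine-treated, mouse 31 stood apart for Ttr (3.55 CPM), mouse 21 for Otx2 (3.36 CPM) and Kcnj13 (0.128 CPM), mouse 26 for Tmem72 (0.219 CPM) and mouse 36 for Slc4a5 (0.345 CPM). Several of these levels rest on a handful of counts.

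In the mPFC, mouse 34 stood apart for Ttr (24.0 CPM) and Slc4a5 (0.459 CPM), mouse 26 for Clic6 (3.65 CPM) and mouse 21 for Aqp1 (1.84 CPM) among ketamine-treated CTRL mice. Among saline-treated CTRL mice, mouse 24 stood apart for Ttr (10.6 CPM) and mouse 30 for Aqp1 (2.22 CPM). Among saline-treated CSDS mice these were mouse 4 for Kcnj13 (1.15 CPM) and mouse 2 for Clic6 (1.39 CPM).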

How the results depend on the processing

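The counts of genes passing the test within regions were 0 with RLE normalization, without a filter, with DESeq2 and with sets of mouse numbers as covariate. They were also 0 without the libraries of mice 9, 13 or 34, which was fitted only for the comparisons that hold these libraries. Between the regions, 15415 genes passed, from 14473 with DESeq2 to 15433 without mouse 9, and 15709 with the mouse as a replicate block. The same settings passed 22 of the other 35 choroid plexus genes in place of 21. Among the 10 genes, the call of Calml4 (LFC 0.90) was lost with the block (0.60), without a filter (0.90), without mouse 9 (0.44) and without mice 9 and 13 (0.23). Clic6 (-0.20) gained a call without mouse 9 (-0.51) and without both (-0.67), and Tmem72 (-0.29) without both (-1.22). The LFC of Ttr was 0.18 with the block in place of 1.32, 0.51 with DESeq2, 0.53 without mouse 9 and -0.59 without both. DESeq2 moved several LFCs of the saline-treated CSDS comparison in the vHipp toward those without mouse 9, to 2.08 for Tmem72, 1.10 for Clic6, -0.09 for Folr1, 0.31 for Slc4a5 and -0.67 for Calml4 in the contrast with CTRL mice and to -1.10 for Folr1, -0.56 for Slc4a5 and 0.56 for Calml4 in that with ketamine, and the cause was not tested. Of the recomputed LFCs of single genes, 46 moved by more than the mean SD of the log2 levels within the groups compared, most of them without mouse 9 or without both mice. The median CPM of the 10 genes in the vHipp moved by less than the spread between libraries with RLE factors and with plain library totals. Depth limits most of the 10 genes: at 1 count per 0.0239 to 0.0853 CPM, the vHipp medians of Kcnj13, Tmem72 and Slc4a5 are at about 1 count or none.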

Other observations

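Igfbp2, an insulin-like growth factor binding protein that the choroid plexus and the leptomeninges make, reached 44.4 CPM in mouse 9 and 31.5 CPM in mouse 13 of the vHipp, with a median of 20.9 CPM over the 40 libraries. F5, coagulation factor V, was highest and second highest in the same libraries (5.23 and 4.54 CPM, median 1.47 CPM). Cldn2 was at 3.36 CPM in mouse 9, its highest level, and at 0.222 CPM in mouse 13, where it ranked 36th of 40. These genes were chosen after their values were seen.

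Among the ependymal genes, Ccdc153 (1.27 CPM) and Tmem212 (1.10 CPM) were highest in mouse 9, and were chosen after their values were seen. Pecam1, an endothelial gene, had no count in 3 of the 40 vHipp libraries, that of mouse 13 among them, where the endothelial genes Flt1 (87.2 CPM) and Slco1a4 (37.5 CPM) were at ranks 3 and 6 of 40.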
